A study of Mus musculus with 12 samples.

Results

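The genes described here are 10 members of the BCL2 family, the proteins that decide at the outer membrane of the mitochondrion whether a cell starts apoptosis. They were chosen by name, as the rows of the deposited count table called Mcl1, Bcl2, Bcl2l1, Bcl2a1a, Bcl2a1b, Bcl2a1d, Bax, Bak1, Bcl2l11 and Bbc3. All 10 were among the 29737 genes of the table, and all 10 had enough counts to be among the 16761 genes tested.

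The cells were neutrophils from the bone marrow of wild-type mice, which the labels describe as Ly6G+ and sorted with magnetic beads, and which the study's methods describe as enriched with a kit. They were cultured for 24 h in RPMI medium with 10% fetal bovine serum, to which PBS as the control or 1 of 3 conjugated bile acids was added. TCA (taurocholic acid) and GCA (glycocholic acid) are the taurine and the glycine conjugate of cholic acid, and Tβ-MCA (tauro-β-muricholic acid) is the taurine conjugate of a bile acid that rodents make. The dose was 200 μM for TCA and GCA. For Tβ-MCA the labels give 10 μM and the study's methods 200 μM, so that Tβ-MCA is set beside TCA and GCA below without a test. The animals were females of the C57BL/6 strain, aged 4 to 6 weeks. Each of the 4 groups had 3 samples, and no source says whether these came from separate mice, so that the p-values measure the spread between samples, which may be technical in part.

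Neutrophils are short-lived cells that die by apoptosis within days, and sooner in culture without survival factors. Their life span depends on the balance of family members with opposite roles. The anti-apoptotic members MCL1, BCL2, BCL-XL (gene Bcl2l1) and A1 (genes Bcl2a1a, Bcl2a1b and Bcl2a1d in the mouse) hold the others in check, and MCL1, a protein with a very short half-life, is the one that neutrophils are best known to need. BAX and BAK (gene Bak1) are the effectors, which form the pores that release cytochrome c. BIM (gene Bcl2l11) and PUMA (gene Bbc3) are BH3-only proteins, which are made or activated under stress or loss of survival signals and which bind the anti-apoptotic members and activate the effectors.

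Between 32757389 and 41375925 reads per sample were counted on genes. Values are given as CPM, read counts scaled to the size of the library after TMM normalization, and, where genes are compared with each other, as the deposited RPKM, which divides by exon length. A count of 3 was taken as the limit of detection, which was 0.0725 to 0.0931 CPM and covers counting error only. Among the neutrophil markers, Csf3r was at 851 to 1106 CPM, Cxcr2 at 281 to 464 CPM and S100a8 at 1270 to 1805 CPM. Ly6g, which encodes the antigen named on the labels, was lower, at 7.54 to 21.4 CPM. The summed level of 5 T and NK cell markers was at most 2.62 CPM. Markers of proliferating cells summed to 2347 to 2920 CPM over the samples, with Mki67 alone at 1744 to 2177 CPM. Monocyte and macrophage markers were present too and differed with the treatment, as described with the results they accompany.

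Bcl2l11 was the member that rose, and it did so with Tβ-MCA, to 1.40 times its level with PBS. Of the remaining members, Bak1 was lower with Tβ-MCA in each sample than in any PBS sample without passing the adjusted threshold, and Mcl1, Bcl2l1, Bcl2, the A1 genes, Bax and Bbc3 did not pass it either. With TCA and with GCA no member passed the threshold. Among further genes of the pathway, Pmaip1, which encodes the BH3-only protein NOXA, fell to 0.451 times its PBS level with Tβ-MCA. Bcl2l11 and Pmaip1 each passed the threshold in just 1 of the 6 fits that left out 1 sample, as described below.

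The sequence that lies before Bcl2l11 is shown because Bcl2l11 is the member that changed. Bcl2l11 is at chr2:128126038-128162547 on the plus strand of GRCm38, and the 250 bases before its first RefSeq start, chr2:128125788-128126037, contain no annotated exon in GENCODE vM21. They were taken from RefSeq for GRCm38.p6 and are printed 5′ to 3′ on the strand of the gene, with capitals for the letters GTAAACA, which FOXO transcription factors recognise.
Bcl2l11 upstream: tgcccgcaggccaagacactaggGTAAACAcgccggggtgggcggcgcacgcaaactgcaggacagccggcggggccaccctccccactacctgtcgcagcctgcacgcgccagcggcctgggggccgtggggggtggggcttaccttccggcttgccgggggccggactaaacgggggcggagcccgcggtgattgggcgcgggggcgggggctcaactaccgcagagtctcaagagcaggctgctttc
The window is rich in G and C, at 72% against a median of 52.4% over all 32851 RefSeq windows of this length, and the letters GTAAACA start at position -227. The letters of 3 motifs were searched on both strands, and they were chosen after the windows had been seen. GTAAACA, or its reverse TGTTTAC, was in 3.17% of all windows, the cAMP response element TGACGTCA in 1.55%, and TGATGCAA, the letters of a combined C/EBP and ATF site, in 0.791%. RefSeq gave 15 windows for the 10 members. Among them the FOXO letters were found in this window of Bcl2l11 and in 1 of Bbc3, and TGATGCAA in that of Bcl2a1b. A match is a description of the letters and not a binding site.

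The levels of the members spanned a wide range. In the PBS samples the mean RPKM was 168 ± 4.93 (SD, n = 3) for Mcl1, 48.3 ± 6.68 for Bax, 25.2 ± 1.11 for Bak1 and 19.2 ± 2.72 for Bcl2l1. Below these came Bbc3 with 7.06 ± 0.199, Bcl2l11 with 3.98 ± 0.446 and Bcl2a1b with 3.16 ± 0.866. The lowest were Bcl2a1d with 1.43 ± 0.194, Bcl2a1a with 0.996 ± 0.256 and Bcl2, the founding member of the family, with 0.245 ± 0.0451. Mcl1 therefore stood 3.48 times above Bax, the next member, and its RPKM was higher than that of 99.0% of the genes of the table. In this order the PBS samples of Bcl2l11 and Bcl2a1b overlapped, as did those of Bcl2a1d and Bcl2a1a, and no other neighbours did. Within the anti-apoptotic members Mcl1 made up 85.6% to 88.7% of the summed RPKM over the 12 samples, and the sum lay between 167 and 214 RPKM. This share rests on the rows of the A1 genes, whose counts are uncertain as described below, and it was 87.9% to 90.9% without these rows and 77.8% to 81.1% with Gm29094, a gene that overlaps Bcl2a1b, added. The effectors summed to 61.1 to 81.2 RPKM and the 2 BH3-only members to 9.93 to 12.9 RPKM.

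**Figure D1:**
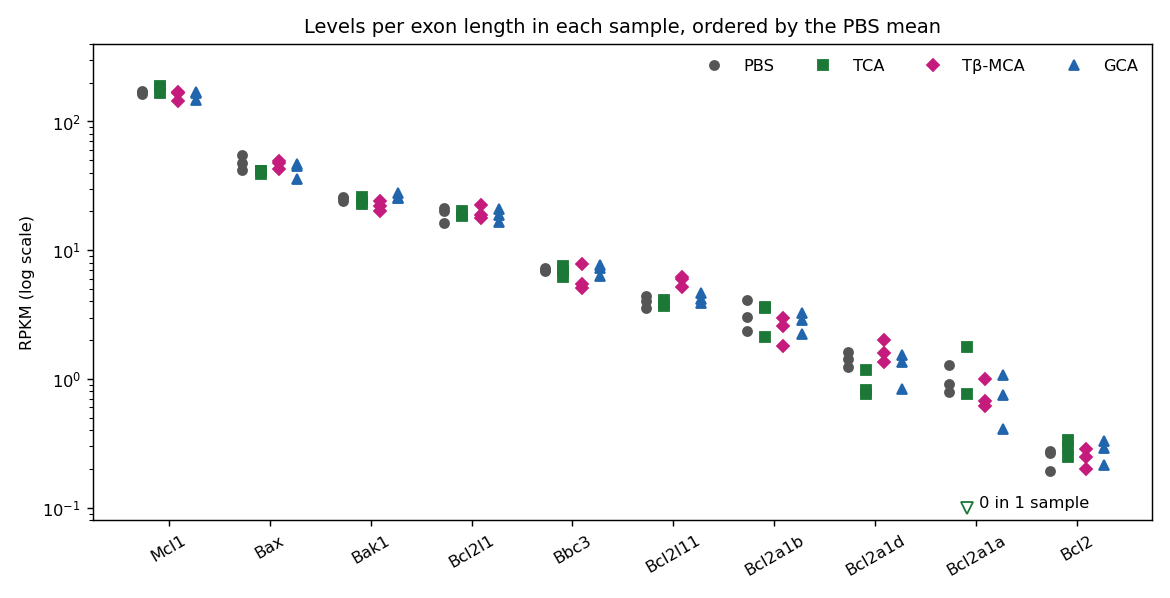
RPKM of the 10 genes in each of the 12 samples on a log axis, ordered by the mean of the 3 PBS samples (circles PBS, squares TCA, diamonds Tβ-MCA, triangles GCA). Mcl1 lay between 145 and 189 RPKM and Bcl2 between 0.193 and 0.335 RPKM, and the open triangle at the bottom marks the TCA sample in which Bcl2a1a had a count of 0.

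Between Tβ-MCA and PBS 1 of the 10 members, Bcl2l11, had a Benjamini-Hochberg adjusted p under 0.05 in edgeR's quasi-likelihood test over all genes, where 7.62% of all genes tested did, 4.44% higher and 3.18% lower. An unadjusted p under 0.05 was reached by 2 members, Bcl2l11 and Bak1, against 24.9% of all genes. The study's methods name cutoffs of 0.05 for p and 2 for the fold change, and at these, with p taken as unadjusted, none of the members passed, against 2.95% of all genes. The values of the 3 samples did not overlap between the groups for 2 members, again Bcl2l11 and Bak1, against 27.0% of all genes. The members' counts were thus near the rates of all genes. The median log2 fold change of the members was -0.10 against 0.0041 for all genes, with 2 of 10 members above 0 against 50.6% of all genes. The 10 include the A1 genes, whose counts are uncertain as described below, and Bcl2, Bcl2l1 and Bax, whose sign changed in some alternative fits.

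Mcl1 had the highest level among the survival genes. In the PBS samples it was at 571, 580 and 592 CPM, and in the Tβ-MCA samples at 486, 549 and 574 CPM. With TCA it was at 589, 632 and 644 CPM and with GCA at 515, 562 and 588 CPM. The Tβ-MCA values overlapped those of PBS at their upper end, and the TCA values overlapped them at their lower end. The log2 fold change against PBS was -0.12 with Tβ-MCA (SE 0.072, adjusted p = 0.340 in edgeR), 0.098 with TCA (SE 0.072) and -0.066 with GCA (SE 0.072).

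Bcl2l1, which encodes BCL-XL, was at 76.1, 99.1 and 92.5 CPM with PBS and at 79.7, 99.9 and 85.4 CPM with Tβ-MCA. With TCA it was at 88.4, 92.8 and 85.0 CPM, and with GCA at 76.6, 84.9 and 96.7 CPM. The 4 groups overlapped throughout. The 95% interval of its fold change with Tβ-MCA ran from 0.844 to 1.16, so that a change of 2-fold lay outside it. Bcl2 had 60 to 127 counts per sample, between 1.79 and 3.07 CPM, and its groups overlapped as well. Its log2 fold change was -0.04 with Tβ-MCA (SE 0.22), 0.26 with TCA (SE 0.21) and 0.17 with GCA (SE 0.22).

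The A1 genes are near-identical copies on chromosome 9, and their counts are uncertain for that reason. Bcl2a1a (chr9:88956900-88962419) and Bcl2a1b (chr9:89199209-89207827) are on the plus strand and Bcl2a1d (chr9:88723285-88731914) on the minus strand of GRCm38. Their coding sequences, taken as the longest open reading frame of the GENCODE vM21 transcripts, are 519 bases long each and 97.9% to 98.8% identical, with 12 positions that differ between at least 2 of the copies. The first 60 bases hold 6 of these 12 positions and are shown to make visible how little separates the copies. Capitals mark the positions that differ.
Bcl2a1a: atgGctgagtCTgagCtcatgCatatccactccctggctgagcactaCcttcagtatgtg
Bcl2a1b: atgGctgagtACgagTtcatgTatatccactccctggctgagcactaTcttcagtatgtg
Bcl2a1d: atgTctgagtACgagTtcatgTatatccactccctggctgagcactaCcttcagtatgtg
Of all stretches of 50 bases in their transcripts, 69.0% of those of Bcl2a1a, 79.2% of Bcl2a1b and 79.5% of Bcl2a1d also occur in another gene, and for stretches of 100 bases the shares are 43.5%, 56.8% and 54.7%. The other genes are the copies themselves and, for 50 bases, Bcl2a1c, and also Gm29094, a gene on the same strand as Bcl2a1b that shares 401 of the 817 exon bases of Bcl2a1b. How the authors' counting treated reads that map to several genes is not given in the sources used here. For comparison, Mcl1, Bcl2l1, Bak1 and Bbc3 share no stretch of 50 bases with the transcripts of another gene, read on the transcribed strand. The opposite strand was not searched, and Bak1 shares exon bases there with Ggnbp1, as described below.

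Few reads were credited to the A1 genes. Bcl2a1b had 48 to 124 counts per sample, Bcl2a1d 22 to 62 and Bcl2a1a 0 to 53, with the count of 0 in TCA replicate 3. Gm29094 had 355 to 544 counts, which was 2.32 to 5.39 times the counts of the 3 A1 genes together in the same sample, so that the level of A1 in these cells cannot be read from the rows that carry its name. Of the counts above 0 of the A1 genes, 74.3% of 35 were even numbers, as were 71.4% of the counts of all genes with at most 50 counts. The 3 genes summed to 3.73, 4.97 and 5.34 CPM with PBS and to 3.11, 4.21 and 4.58 CPM with Tβ-MCA. With TCA the sum was 2.45, 4.62 and 5.04 CPM and with GCA 2.93, 4.04 and 4.93 CPM. All 4 groups of these sums overlapped.

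Fitted as 1 gene, the A1 sum had a log2 fold change of -0.24 with Tβ-MCA (SE 0.26), -0.21 with TCA (SE 0.26) and -0.24 with GCA (SE 0.26). With Gm29094 added to the sum, a choice made after the data had been seen, these became -0.15, 0.02 and -0.19 with an SE of 0.11 each. Bcl2a1d on its own was at 1.09, 1.41 and 1.24 CPM with PBS and at 0.682, 1.02 and 0.704 CPM with TCA. These values did not overlap, with a log2 fold change of -0.63 (SE 0.28, unadjusted p = 0.0417, adjusted p = 0.9999 in edgeR). Since the counts were 22 to 42 in the TCA samples and the copies share most of their sequence, this difference cannot be assigned to Bcl2a1d alone.

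**Figure D2:**
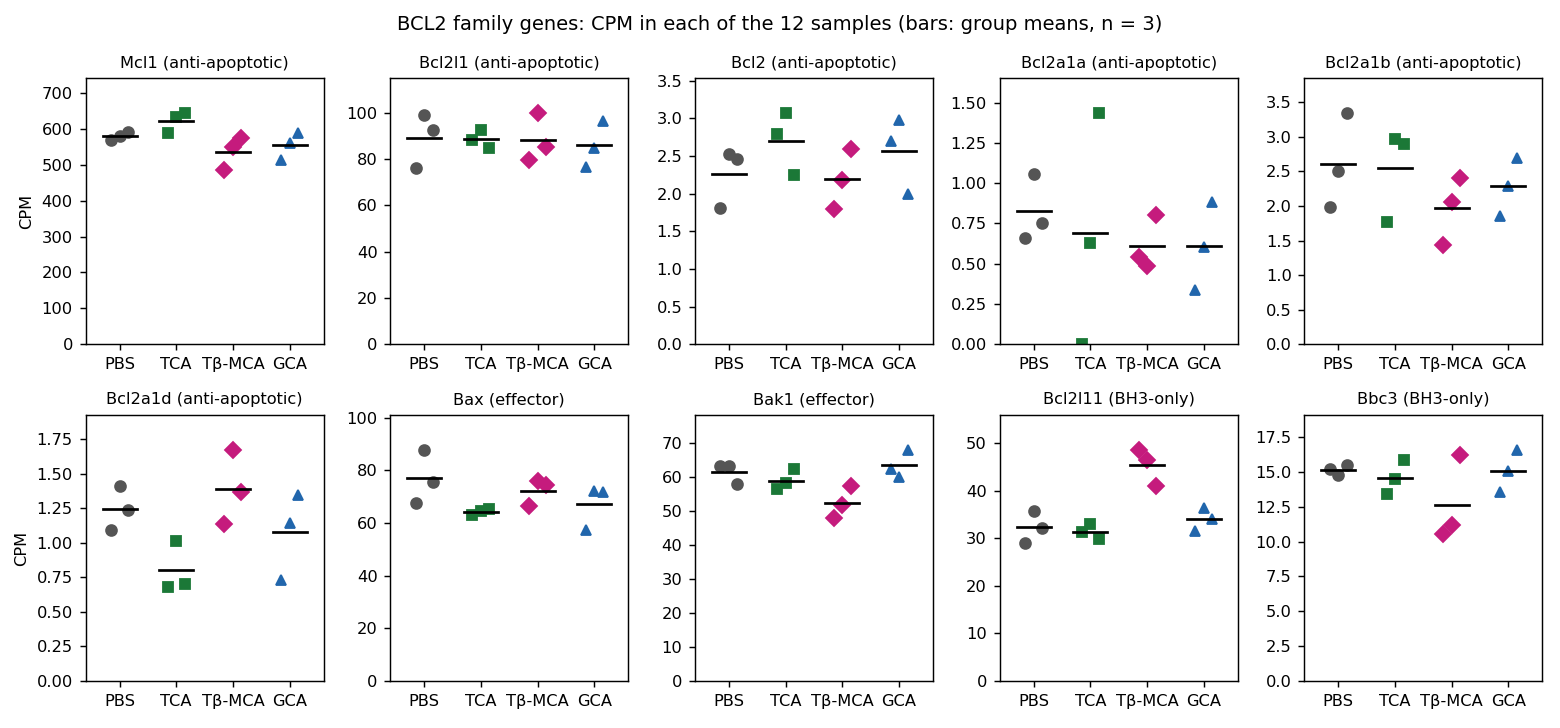
CPM of each gene in each sample, 1 panel per gene with an axis that starts at 0, with points for samples and a bar for the mean of the 3 samples of a group. Bcl2l11 is the panel in which the Tβ-MCA samples, at 40.9 to 48.6 CPM, stand above all 9 other samples, at 29.0 to 36.5 CPM.

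Of the effectors, Bax had its highest value with PBS, where it was at 67.6, 87.8 and 75.6 CPM. With Tβ-MCA it was at 66.5, 75.8 and 74.4 CPM, with TCA at 63.1, 64.6 and 65.3 CPM and with GCA at 57.2, 72.2 and 71.6 CPM. The 3 TCA samples lay close together and below every PBS sample, while Tβ-MCA and GCA overlapped PBS. The log2 fold change with TCA was -0.26 (SE 0.10, unadjusted p = 0.0206, adjusted p = 0.9999 in edgeR), so that it did not pass the adjusted threshold. Bax (chr7:45461697-45466898, minus strand) shares 192 exon bases with RP23-218K15.5 on the same strand, and reads in these bases cannot be assigned to 1 of the genes.

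Bak1 was at 63.1, 63.1 and 57.7 CPM with PBS and at 48.0, 51.7 and 57.1 CPM with Tβ-MCA. With TCA it was at 56.2, 58.1 and 62.1 CPM and with GCA at 62.2, 59.8 and 67.9 CPM. Each Tβ-MCA sample was below each PBS sample, by a narrow margin for the highest of them, Tβ-MCA replicate 5. The log2 fold change with Tβ-MCA was -0.23 (SE 0.078, unadjusted p = 0.00983, adjusted p = 0.0823 in edgeR). Without Tβ-MCA replicate 5 edgeR gave -0.30 and an adjusted p of 0.0167. Bak1 (chr17:27019810-27029009, minus strand) shares 357 exon bases with Ggnbp1 on the opposite strand in the annotation of the deposited counts. In GENCODE vM21 these genes share 614 exon bases. Ggnbp1 had 1389 to 1805 counts and a log2 fold change of -0.08 (SE 0.068) with Tβ-MCA, and without knowledge of the strand setting reads from the shared bases cannot be told apart.

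Of the BH3-only members, Bcl2l11 encodes BIM, a BH3-only protein that binds all anti-apoptotic members. It was at 29.0, 35.8 and 32.2 CPM with PBS and at 48.6, 46.5 and 40.9 CPM with Tβ-MCA, from 1009 to 1721 counts per sample over all groups. With TCA it was at 31.3, 32.97 and 29.8 CPM and with GCA at 31.5, 36.5 and 34.0 CPM. The Tβ-MCA samples were above all PBS, TCA and GCA samples, which overlapped each other. The log2 fold change with Tβ-MCA was 0.49 (SE 0.092, adjusted p = 0.0206 in edgeR), which is 1.40-fold with a 95% interval of 1.22 to 1.61. With TCA it was -0.04 (SE 0.093) and with GCA 0.07 (SE 0.093). The adjusted p lay between 3.13e-05 and 0.116 over 17 alternative fits, in which the log2 fold change was 0.41 to 0.57, and it was 0.0576 when only the Tβ-MCA and PBS samples were fitted. In 5 of the 6 fits that left out a sample the call was lost, with an adjusted p in edgeR of 0.0710, 0.0702 and 0.0503 without PBS replicate 3, 5 and 6 and of 0.0997 and 0.116 without Tβ-MCA replicate 3 and 4, and without Tβ-MCA replicate 5 it was 0.000929.

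Bbc3, which encodes PUMA, a target of p53, was at 15.2, 14.8 and 15.5 CPM with PBS. With Tβ-MCA it was at 10.6, 11.2 and 16.2 CPM, with TCA at 13.4, 14.5 and 15.9 CPM and with GCA at 13.5, 15.1 and 16.6 CPM. Replicates 3 and 4 of Tβ-MCA were the lowest of the 12 samples, and replicate 5 was above all PBS samples. The log2 fold change with Tβ-MCA was -0.26 (SE 0.14, adjusted p = 0.263 in edgeR), and without replicate 5 edgeR gave -0.48 and an adjusted p of 0.00735. In RPKM, Bcl2l11 was 0.505 to 0.640 times Bbc3 with PBS and 0.666 to 1.22 times with Tβ-MCA. Mcl1 was 38.1 to 46.2 times Bcl2l11 with PBS, 44.2 to 50.8 times with TCA, 36.2 to 40.6 times with GCA and 23.5 to 32.95 times with Tβ-MCA, and the Tβ-MCA ratios were the only ones below those of PBS in every sample.

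**Figure D3:**
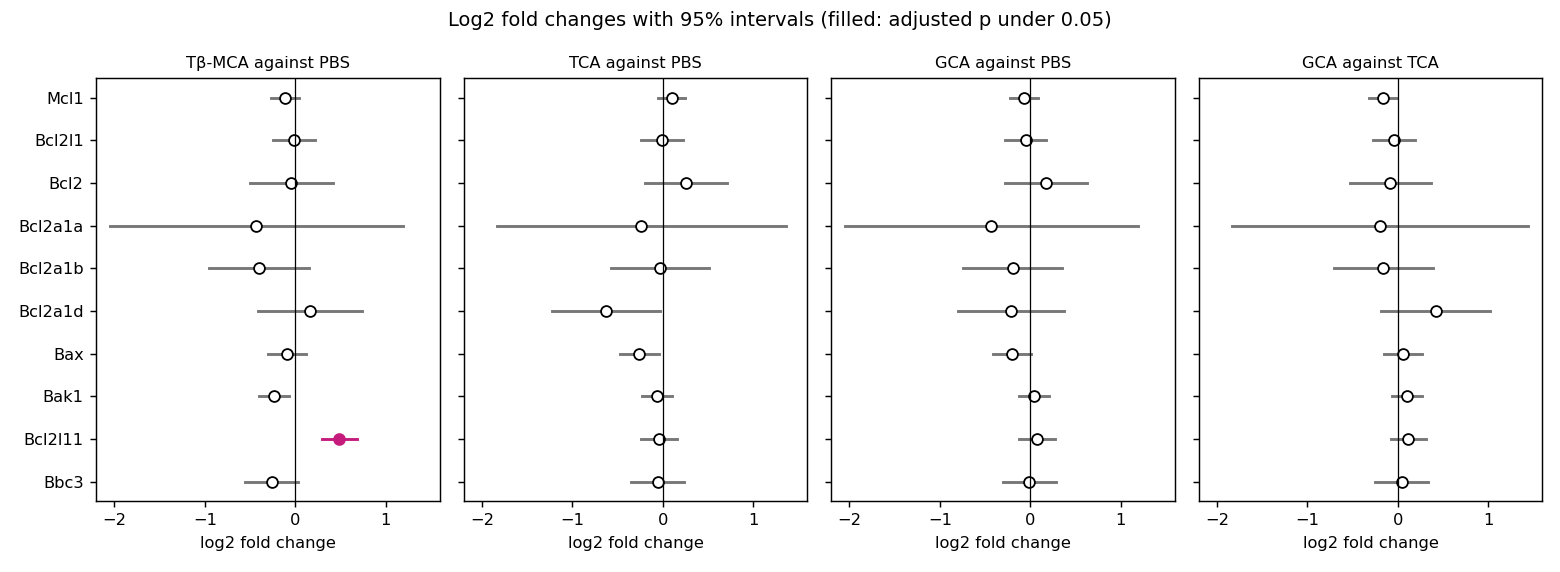
Log2 fold change of each gene with its 95% interval from edgeR in the 4 comparisons, where a filled point marks an adjusted p under 0.05. Bcl2l11 with Tβ-MCA, at 0.49, is the only filled point, and the intervals of Bcl2a1a are the widest.

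Markers of other cell types and of neutrophils differed with Tβ-MCA as well. The summed level of 8 monocyte and macrophage markers was 1040 to 1056 CPM with PBS against 287, 349 and 798 CPM with Tβ-MCA, in the order of replicates 3, 4 and 5, and 0 of the 8 were higher with Tβ-MCA, with 1, Ly6c2, called lower. The summed level of 5 markers of immature granulocytes was 263 to 270 CPM with PBS and 47.2, 67.2 and 203 CPM in the same Tβ-MCA samples. The sum of 11 neutrophil markers was 47931 to 59357 CPM with PBS and 38391 to 43722 CPM with Tβ-MCA. Of the 11, 4 were called lower, Ly6g, S100a8, Mmp9 and Camp. Eosinophil markers (4, of which 1 was called lower) summed to 136 to 237 CPM with PBS and 53.2 to 122 CPM with Tβ-MCA, and B cell markers (5, of which 1 was called lower) to 7.50 to 12.5 CPM and 3.70 to 5.86 CPM. Markers of proliferating cells, of basophils and mast cells and of erythroid cells overlapped between these groups, while the 5 T and NK cell markers summed to 2.18 to 2.62 CPM with PBS and 1.19 to 1.47 CPM with Tβ-MCA, with none called. Of each list no marker was at 0 in all samples, and in bulk RNA fewer cells of a type and less RNA per cell cannot be told apart. Tβ-MCA replicate 5 was the sample closest to PBS in the monocyte and the immature granulocyte sums, and it had the lowest Bcl2l11 and the highest Mcl1, Bak1 and Bbc3 values of its group. Its Bcl2l11 value, 40.9 CPM, was still above the highest PBS value, 35.8 CPM. Pmaip1, described below, was at 44.6 CPM in Tβ-MCA replicate 5 and at 24.9 and 22.8 CPM in replicates 3 and 4. Among the GCA samples, replicate 4 had the lowest monocyte sum (725 CPM), immature granulocyte sum (175 CPM) and Pmaip1 (42.2 CPM). GCA replicate 4 also had the highest Bcl2l11 (36.5 CPM) and the lowest Bak1 (59.8 CPM) of its group. Among the TCA samples, replicate 3 had the lowest of both sums (928 and 214 CPM) and the highest Pmaip1 (67.0 CPM). In TCA replicate 3 Bcl2l11, at 31.3 CPM, lay between the other TCA samples, and Bak1, at 56.2 CPM, was the lowest of them. The part of these other cells in the values of the members and of the genes of the lists below was not tested.

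**Figure D4:**
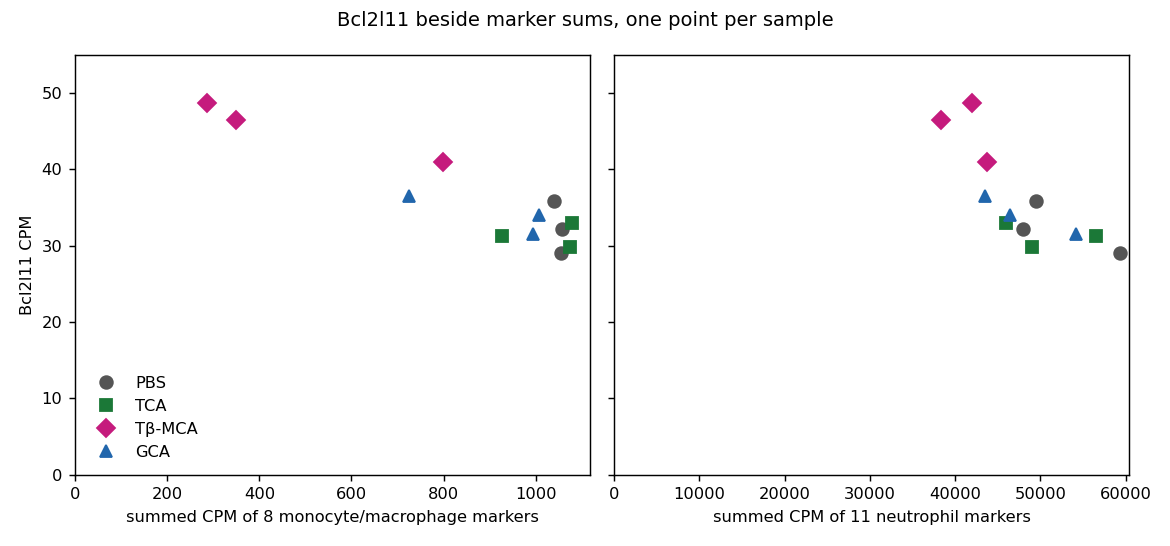
CPM of Bcl2l11 in each sample against the summed CPM of 8 monocyte and macrophage markers (left) and of 11 neutrophil markers (right), with both axes from 0. The 3 Tβ-MCA samples have the highest Bcl2l11 values and, among them, replicate 5 at 798 CPM of monocyte and macrophage markers has the lowest.

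Further genes of the pathway were read from 5 lists, in which 80 genes were tested. With Tβ-MCA 5 of these 80 passed the adjusted threshold, 6.25% against 7.62% of all genes, and 26 had an unadjusted p under 0.05, 32.5% against 24.9% of all genes. Of 14 other BCL2 family genes, 13 were in the table under that name and 9 had enough counts to be tested. With Tβ-MCA 1 of them, Pmaip1, fell, against 3.18% of all genes, and none rose. Of the 9, 4 had an unadjusted p under 0.05, against 24.9% of all genes. These 4, Pmaip1, Bcl2l13, Bcl2l14 and Bcl2l15, were each lower. With Tβ-MCA Bcl2l14 was at 0.120, 0.0540 and 0.214 CPM, in 1 sample below the limit of detection. Bcl2l15 varied widely within that group, at 3.86, 8.83 and 13.8 CPM. The median log2 fold change of the 9 genes was -0.20. The 4 that were not tested, Bcl2l10, Bok, Bik and Hrk, had at most 6 counts in any sample. Pmaip1 was at 69.3, 68.4 and 67.5 CPM with PBS and at 24.9, 22.8 and 44.6 CPM with Tβ-MCA. With TCA it was at 67.0, 60.5 and 55.4 CPM and with GCA at 50.9, 42.2 and 64.8 CPM. Every TCA and GCA sample was also below every PBS sample, by a narrow margin for the highest TCA sample. Samples did not overlap for 9.67% of all genes with TCA and 9.55% with GCA. The log2 fold change was -0.17 with TCA (SE 0.23, unadjusted p = 0.494 in edgeR) and -0.38 with GCA (SE 0.24, unadjusted p = 0.141 in edgeR). Only Tβ-MCA passed the adjusted threshold, and Tβ-MCA was not tested against the other bile acids. The log2 fold change with Tβ-MCA was -1.15 (SE 0.24, adjusted p = 0.0285 in edgeR). NOXA, the protein it encodes, binds chiefly MCL1 and A1.

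Of 17 regulators of BH3-only genes, 2 rose with Tβ-MCA and none fell, against 4.44% of all genes that rose and 3.18% that fell. Ddit3 encodes CHOP, a transcription factor of the unfolded protein and integrated stress responses that is known to induce Bcl2l11 and Bbc3. It was at 79.2, 96.4 and 88.1 CPM with PBS and at 116, 141 and 108 CPM with Tβ-MCA, without overlap (log2 fold change 0.47, SE 0.11, adjusted p = 0.0257 in edgeR). Trib3, a pseudokinase gene and a target of CHOP, was at 2.01, 2.15 and 2.43 CPM with PBS and at 4.25, 5.27 and 3.13 CPM with Tβ-MCA, also without overlap (log2 fold change 0.94, SE 0.24, adjusted p = 0.0324 in edgeR). Of the same 17 genes, 9 had an unadjusted p under 0.05, against 24.9% of all genes, and of these 9 3 were higher and 6 lower. The 6 lower ones were all among the 11 genes listed as p53 and its targets, which was noticed after their values had been seen. Foxo3, singled out after its values were seen because of the FOXO letters upstream of Bcl2l11, was at 107, 94.7 and 103 CPM with PBS and at 119, 113 and 109 CPM with Tβ-MCA, with an adjusted p of 0.131 in edgeR. The log2 fold change of Foxo1 was -0.11 (adjusted p = 0.833 in edgeR) and that of Foxo4 0.16 (adjusted p = 0.233 in edgeR). A part of FOXO factors in the Bcl2l11 values was not tested.

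Of 14 genes for the turnover of MCL1, 12 were in the table under that name and tested. With Tβ-MCA 1 of the 12 rose, against 4.44% of all genes. This was Mapk9, which encodes the kinase JNK2, at 18.6, 22.2 and 24.6 CPM with PBS and at 29.1, 29.9 and 27.5 CPM with Tβ-MCA (log2 fold change 0.40, SE 0.10, adjusted p = 0.0332 in edgeR). The groups did not overlap. Of the 12 genes, 3 had an unadjusted p under 0.05, against 24.9% of all genes, and each of these was higher. Of 17 genes of survival cytokine signalling 1 fell, against 3.18% of all genes, and none rose. The gene that fell was Cish, a feedback inhibitor that STAT5 induces. It went from 3.18, 2.88 and 2.72 CPM with PBS to 1.41, 1.35 and 2.09 CPM with Tβ-MCA (log2 fold change -0.86, SE 0.19, adjusted p = 0.0247 in edgeR). These values rest on 47 to 111 counts per sample, and the groups did not overlap. Of the 17, 6 had an unadjusted p under 0.05, 1 higher and 5 lower, against 24.9% of all genes. Of 25 genes of the apoptosome, the caspases and their inhibitors, none passed the adjusted threshold in edgeR, and 4 of the 25 had an unadjusted p under 0.05, against 24.9% of all genes. Their median log2 fold change was 0.05. In the 6 fits that each left out 1 sample, Mapk9 kept its call in 2 and Pmaip1, Ddit3, Trib3 and Cish kept theirs in 1, the one without Tβ-MCA replicate 5, while in the others the adjusted p of these genes in edgeR lay between 0.0506 and 0.170.

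**Figure D5:**
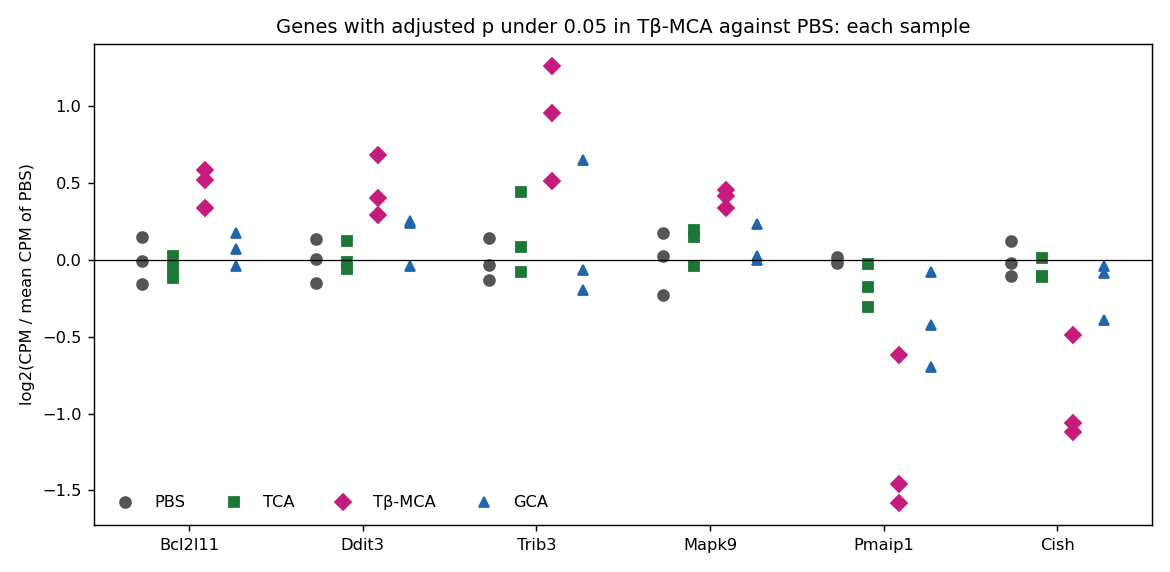
Log2 of the CPM in each sample over the mean CPM of the 3 PBS samples, for Bcl2l11 and the 5 list genes with an adjusted p under 0.05 between Tβ-MCA and PBS. The Tβ-MCA samples lie above the PBS samples for Bcl2l11, Ddit3, Trib3 and Mapk9 and below them for Pmaip1 and Cish.

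TCA against PBS gave an adjusted p under 0.05 for no member and for 0.00% of all genes in edgeR. An unadjusted p under 0.05 was reached by 2 members, Bax and Bcl2a1d, both lower, against 3.26% of all genes, and the samples did not overlap for the same 2, against 9.67% of all genes. The median log2 fold change of the members was -0.049. The intervals show how large a change could have been missed. With TCA the 95% interval of the fold change was 0.963 to 1.19 for Mcl1, 0.846 to 1.11 for Bcl2l11 and 0.855 to 1.08 for Bak1, while it was 0.280 to 2.57 for Bcl2a1a. In the 5 lists no gene had an adjusted p under 0.05, and 1, Bcl2l2, had an unadjusted p under 0.05, at 0.0474 in edgeR.

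GCA against PBS also gave an adjusted p under 0.05 for no member and for 0.00% of all genes in edgeR. No member had an unadjusted p under 0.05, against 3.53% of all genes, and none had samples that did not overlap, against 9.55% of all genes. The median log2 fold change of the members was -0.059. Bax had the lowest p, with a log2 fold change of -0.20 (SE 0.10, unadjusted p = 0.0643 in edgeR). The 95% interval of the fold change was 0.859 to 1.06 for Mcl1, 0.917 to 1.20 for Bcl2l11 and 0.811 to 1.22 for Bbc3. In the 5 lists no gene had an unadjusted p under 0.05 in edgeR. The comparisons with Tβ-MCA, TCA and GCA share the same 3 PBS samples, so that a PBS sample that is high or low moves all of them. For Bax, PBS replicate 5 was high, at 87.8 CPM, and for Bcl2l1, PBS replicate 3 was low, at 76.1 CPM.

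GCA and TCA, which differ in the amino acid that is joined to cholic acid, had the same dose and time and were the only pair of bile acids tested. No member differed at an adjusted p under 0.05, and 0.00% of all genes did. An unadjusted p under 0.05 was reached by 1 member, Mcl1, against 2.46% of all genes. Each GCA sample of Mcl1 was below each TCA sample, at 588 against 589 CPM for the closest pair, with a log2 difference of -0.16 (SE 0.072, unadjusted p = 0.0370, adjusted p = 0.9998 in edgeR) and a 95% interval of 0.803 to 0.992 on the scale of the fold. For the other members the interval of the fold contained 1. It was 0.827 to 1.14 for Bcl2l1, 0.899 to 1.21 for Bax, 0.959 to 1.21 for Bak1, 0.946 to 1.24 for Bcl2l11 and 0.842 to 1.26 for Bbc3, which leaves room for differences of about this size between the conjugates. For Bcl2 it was 0.691 to 1.29, and for the A1 genes it was wider. Set beside both without a test, the Tβ-MCA samples had higher Bcl2l11 than any TCA or GCA sample, and for Mcl1 all 3 were below the lowest TCA sample and overlapped GCA.

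Across the 12 samples the other gene whose log2 CPM followed each member most closely was looked up among all genes tested, as a description. For Bcl2l11 it was Vrk3 (Pearson r = 0.97), a kinase gene that was at 24.0 to 27.2 CPM with Tβ-MCA and at 17.5 to 22.6 CPM with PBS. Mcl1 was followed by Trp53inp1 (r = 0.94), a p53 target, Bak1 by Dapk1 (r = 0.95), a death-associated kinase gene, and Bbc3 by Ceacam19 (r = 0.94). For Bcl2l1 it was Phf21a (r = 0.92), for Bcl2 9430034N14Rik (r = 0.88), for Bcl2a1a Prickle2 (r = 0.93), for Bcl2a1b Gm26809 (r = 0.97) and for Bcl2a1d Rasgrp1 (r = 0.92). Bax was followed most closely by RP23-218K15.5 (r = 0.98), the gene with which it shares exon bases. Each r is the highest of all genes tested, the points share their libraries and their 4 groups, and at the low counts of Bcl2 and the A1 genes counting error is part of the pattern. Among the members themselves the highest r was that of Bak1 and Bbc3 (0.83) and the lowest that of Bak1 and Bcl2l11 (-0.75), over the same 12 samples.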

How the data were processed

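RNA of 12 samples of mouse bone marrow neutrophils was analysed. Per the labels, the authors made stranded mRNA libraries, trimmed the reads with Trimmomatic 0.36, aligned them with STAR 2.5.3a and counted them with featureCounts (Subread 1.5.1) on GRCm38 (mm10). They deposited raw counts per gene and RPKM values. Strand, pair and multi-mapping settings are not given in the sources used here. RPKM recalculated from the deposited counts differed from them by no more than a relative 1.3e-06. The columns name the GCA samples "GA".

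Counts were scaled by TMM and tested with edgeR 4.0.16 (R 4.3.3; robust quasi-likelihood, filterByExpr by group, all 4 groups sharing the spread), with Benjamini-Hochberg adjustment over 16761 genes and 95% intervals from the same fit. The procedure was tested on simulated counts. Log2 CPM used a prior count of 2. Python 3.11.15 with pandas 2.3.3, numpy 2.4.6 and matplotlib 3.10.9 was used for the other calculations. Total counts were 32757389 to 41375925 per sample.

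Alternatives were DESeq2 1.42.0, total library size, DESeq2 size factors, no filter, a minimum of 10 counts per sample, a fit of just the compared pair of groups, a replicate block, limma 3.58.1 on log2 RPKM with a pseudocount of 1 or 0.1 (mean RPKM 0.5 or more), the A1 genes summed, and each sample left out. The sum with Gm29094 was added after seeing the data. Members and lists were chosen with earlier results of these data known. Named are all 10 members, up to 6 list genes with an adjusted p under 0.05 per list and comparison, and for each member the gene most like it. Bcl2a1c, March5 and Usp13 are not in the table under these names.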

Additional observations from a re-analysis of the deposited data

How the results depend on the processing

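Limits. With 3 samples per group the counts of called genes depended on single samples and on the settings. Between Tβ-MCA and PBS 1278 genes, 1 member and 5 list genes were called. Leaving out 1 sample gave 0 to 3076 genes, 0 to 3 members and 0 to 23 list genes, the highest each without Tβ-MCA replicate 5, when Bcl2l11, Bak1 and Bbc3 were called. DESeq2 called 2035 genes, 2 members and 14 list genes, no filter 2406 genes and 13 list genes, and limma 2 list genes at either pseudocount, with 689 genes at 0.1. With only the 2 groups compared, edgeR called 0 genes, 0 members and 0 list genes, with 3485 genes and 2 members at an unadjusted p under 0.05. Over the alternatives Pmaip1 kept its call in 10 of 17 fits, Mapk9 and Ddit3 in 10 of 17, Trib3 in 9 of 17 and Cish in 9 of 15, and each kept its direction. These fits include the A1 sums without and with Gm29094, which left the counts of these genes and of Bcl2l11 unchanged. A call kept in those 2 fits is therefore no separate check. In the other comparisons, where edgeR called 0 genes, DESeq2 called 1 gene with TCA, and no filter called 37 genes with TCA, 36 with GCA and 2 of them in the lists, and 42 between GCA and TCA, none of them members. No fit without 1 sample called a gene there (0 to 0).

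The replicate number is shared by 2 samples of PBS and each bile acid, and no source says what it stands for. Deviations from the group means correlated for same-numbered samples of PBS and Tβ-MCA with r of 0.0597 to 0.240. Differently numbered samples of these groups gave r of -0.203 to 0.125. Between PBS and TCA, r for the same number reached 0.326. The best match in another group had the same number in 26 of 30 cases, a hint from the data only. The main fit did not use the replicate number. With the replicate block, 1498 genes, 2 members (Bcl2l11 and Bak1) and 8 list genes were called between Tβ-MCA and PBS, and 3 genes with TCA. Of the 5 list genes named, Mapk9, Trib3 and Cish were among these 8, and Pmaip1 (adjusted p = 0.0715) and Ddit3 (adjusted p = 0.0772) were not.

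Some log2 fold changes that were not called in any fit of their comparison changed sign around 0. With Tβ-MCA, total library size gave 0.0026 for Bcl2 and 0.033 for Bcl2l1, and limma gave 0.034 (pseudocount 1) and 0.036 (0.1) for Bcl2l1. With TCA, the block gave 0.11 for Bcl2a1b, and limma 0.0035 and 0.0041 for Bcl2l1. With GCA, Bbc3 was 0.0053 by total library size, 0.022 with the block and 0.00059 and 9.7e-05 in limma. Between GCA and TCA, limma gave 0.021 and 0.55 for Bcl2a1a. Without 1 sample, the ranges with Tβ-MCA were -0.18 to 0.079 (Bcl2), -0.12 to 0.067 (Bcl2l1) and -0.18 to 0.012 (Bax). With TCA they were -0.11 to 0.074 (Bcl2l1), -0.12 to 0.034 (Bcl2l11), -0.20 to 0.19 (Bcl2a1b), -1.29 to 0.31 (Bcl2a1a) and -0.12 to 0.0016 (Bbc3). With GCA they were -0.15 to 0.030 (Bcl2l1), -0.36 to 0.029 (Bcl2a1b), -0.085 to 0.062 (Bbc3), -0.41 to 0.0019 (Bcl2a1d) and -0.0069 to 0.085 (Bak1). Between GCA and TCA they were -0.031 to 0.12 (Bbc3), -0.20 to 0.071 (Bcl2), -0.75 to 0.86 (Bcl2a1a) and -0.14 to 0.033 (Bcl2l1). The cause of these changes was not tested.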
